A study of Mus musculus with 24 samples.

Results

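TFEB and TFE3 are basic helix-loop-helix leucine zipper transcription factors of the MiT family, to which MITF also belongs. When amino acids are plentiful, mTORC1 at the lysosome phosphorylates TFEB and TFE3 and holds much of both proteins in the cytoplasm, and on starvation they enter the nucleus and raise genes of the lysosome and of autophagy. All 3 proteins bind E-box sequences built on CACGTG or CATGTG, and in melanocytes MITF is the member that drives pigment genes. Here the loss of TFEB was examined in mouse melanoma cells that already lacked TFE3, by setting the TFEB/TFE3 double knockout (DKO) against the TFE3 single knockout (KO), with MITF present on both sides. The comparison used 6 of the 24 libraries of the series, 3 from each line, and all 12010 genes of the deposited table.

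The cells are B16F10-luc2, a mouse melanoma line that carries luciferase, kept in DMEM with 10% serum. Both lines were made by transfecting Cas9 with a synthetic guide and were isolated as clones. Each line therefore stands for a clone, and a difference between clones cannot be told apart from the loss of TFEB. The study made its TFE3 and TFEB knockouts in the parental cells and in MITF KO cells. Whether the DKO was derived from a single KO is not given in the sources used here, nor whether the 3 libraries of a line came from separate cultures. The p-values therefore measure a spread between libraries of a line, and this spread is pooled over all 8 lines of the series. The parental line (MITF, TFEB and TFE3 intact), the TFEB KO, the MITF/TFE3 DKO and the line without all 3 factors (TKO) are otherwise used below only to place the result.

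The guide sites are shown because they define the genotypes. The Tfeb guide matched chr17:48097370-48097392 of GRCm39 (mm39) on the plus strand, in coding exon 3 of the 9 exons of Tfeb-202. The Tfe3 guide matched chrX:7631803-7631825 on the minus strand, in coding exon 2 of the 10 exons of Tfe3-201. Each matched the genome at 1 site, and the capitals mark the NGG motif that Cas9 needs next to the guide. The methods of the study name a different Tfe3 guide from the series description, so which of them made these cells is not settled here.
Tfeb: tggacacgtactgtccacctCGG
Tfe3: cgtagaagctgtcaggatcgAGG

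Levels are given as CPM, the reads of a gene scaled to the total of its library and divided by the TMM factor of that library. The TFE3 KO libraries held Tfeb at 12.3, 10.9 and 8.21 CPM, and the DKO libraries at 5.27, 4.93 and 5.15 CPM. Every DKO library was below every TFE3 KO library, and the log2 fold change was -0.89 ± 0.18 (SE; limma, adjusted p = 0.00096). Tfe3 was low on both sides, with 11.6, 8.44 and 12.2 CPM in the TFE3 KO and 14.4, 8.03 and 11.4 CPM in the DKO, against 35.4 to 38.4 CPM in the parental cells. Mitf rose from 719, 648 and 693 CPM to 892, 903 and 832 CPM (0.35 ± 0.09, adjusted p = 0.0085). In a fit of the 6 libraries alone the call of Mitf was lost (adjusted p = 0.0606). The reads come from the 3′ end of each transcript, outside the edited exons, so they report the amount of transcript and not whether a protein can be made.

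The libraries held 21413759 to 23814972 reads on genes in the TFE3 KO and 20356930 to 25469391 in the DKO. Libraries of the same line differed along a shared pattern, found as the leading component of the deviations from the line means over 9539 genes. It held 51.5% of the variance within lines, the next component 9.28%. TFE3 KO libraries scored 7.82, -26.05 and -16.37 and DKO libraries 20.7, -7.68 and 24.13, so the lines overlapped on it but differed in their centre. Gstp1, Pfn1, Pmpcb, Gng5 and Cox7c had the largest weights on its low side. Values with the score as a covariate are named as such below. This covariate was chosen after the data were seen. Its score was built from the same genes, and a gene's weight went with its main log2 fold change (Pearson r = 0.60). Values with it are therefore a description and no independent test. Of 10 melanocyte lineage markers, all 10 were in the table, 1 was called higher and 1 lower, and their summed level was 30137 to 32285 CPM in the TFE3 KO and 29761 to 31668 CPM in the DKO. Markers of leukocytes summed to at most 3.14 CPM in either line, with Ptprc and 7 others of 11 not in the table, and those of fibroblasts to at most 27.4 CPM, with 4 of 10 in the table, 2 of them called lower. Of 9 keratinocyte and epithelial markers 2 were in the table, 1 of them called higher, with a sum of at most 1.93 CPM. Only 2 of 8 endothelial markers, Pecam1 and Vwf, were in the table, and both were called higher. Their sum of 2.57 to 4.39 CPM in the TFE3 KO and 30.6 to 38.2 CPM in the DKO was mostly Pecam1, which is described below. Genes on the other strand overlap the 3′ ends of Tspan18, Grn, Ctns, Atp6v1d, Plekhm1, Slc24a5, Tapbp, Hk1, Me1, Hmgcs1, Fen1, Ccna2, Rps23, Rps27a, Xpc, Ctnnb1, Ier3 and Acta2. How the counting treated strand is not given, so the values of these genes may include reads of the overlapping gene.

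The first question was how many genes differed once TFEB was lost. At an adjusted p under 0.05 (limma with Benjamini-Hochberg adjustment on log2(CPM + 1)), 1742 genes were upregulated, which is 14.5% of all genes tested, and 1685 were downregulated, which is 14%. With the threshold of the study, which asks for a 2-fold change or more with a p under 0.05 before adjustment, 204 genes (1.70%) were higher and 141 (1.17%) lower in the DKO. The rises and falls differed in how well the libraries separated. Every DKO library was above every TFE3 KO library for all 204 genes that were at least 2-fold higher, but 83 of the 141 genes that were at least 2-fold lower had overlapping libraries. With the component as a covariate, 154 of the 204 and 31 of the 141 were still changed by at least 2-fold. Large falls also depended on single libraries: the 141 became 55 without TFE3 KO replicate 2, 61 without DKO replicate 3, 80 without DKO replicate 1, 325 without TFE3 KO replicate 1 and 354 without DKO replicate 2. A fit of the 6 libraries alone takes its spread from the compared lines only. There 704 genes were upregulated and 344 downregulated at the adjusted threshold, and 699 and 343 of these were among the genes called with all lines.

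**Figure D1:**
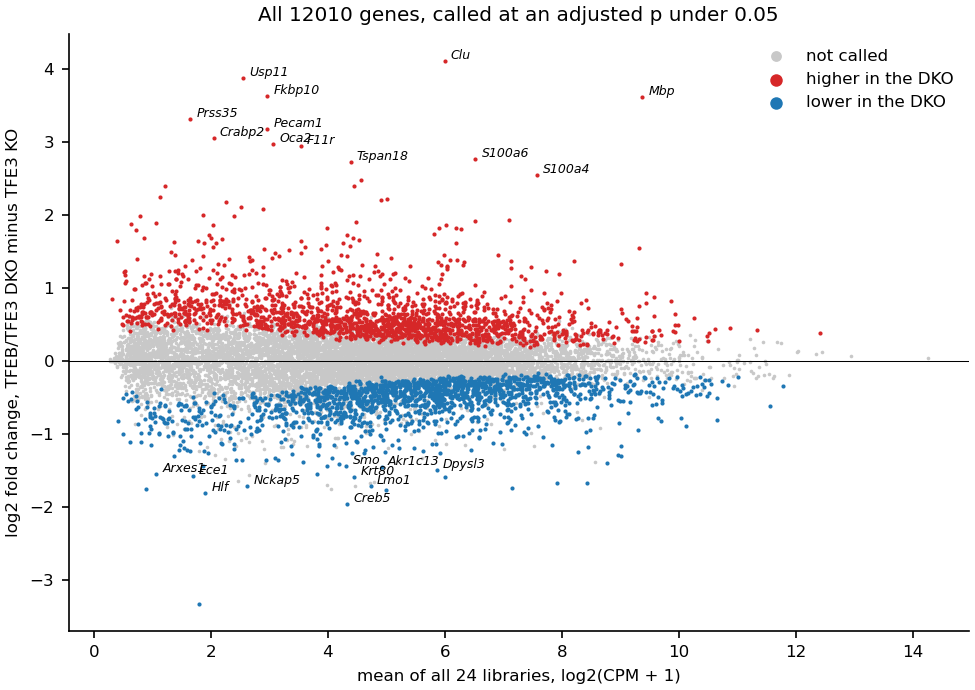
Log2 fold change of the TFEB/TFE3 DKO against the TFE3 KO (y axis) by mean level over all 24 libraries as log2(CPM + 1) (x axis), with 1 point per gene and 22 genes of the leading rises and falls named. Rises reached 4.11 (Clu) and that of Creb5 was -1.96.

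Genes were also followed along the chromosomes. In windows of 100 neighbouring genes with a mean of at least 5 CPM (9316 genes), the median rose by at least 0.3 above that of all genes in 3 stretches, on chromosomes 1, 8 and 16, and fell by as much in none. They held 765 genes (8.21%), of which 369 were upregulated (48.2%) and 16 downregulated (2.09%), against 12% and 17.4% of the genes outside. The stretch of chromosome 16 ran over all 303 genes used from that chromosome, with a median of 0.31. Against the parental cells these genes had a median of -0.32 in the TFE3 KO and -0.02 in the DKO. The stretch of chromosome 8 held 292 genes from Fam32a to Ntpcr, with medians against the parental cells of -0.01 in the TFE3 KO and 0.25 in the DKO, and that of chromosome 1 held 170 genes from Ndufb3 to Rab3gap1, with -0.15 and 0.11. Genes described below that lie in these stretches include Nlrc5, Psmb10, Calr, Mvd and Herpud1 on chromosome 8, Nckap5, Bmpr2 and Epha4 in that of chromosome 1 and Gsk3b in that of chromosome 16. The number of DNA copies was not analysed here, and its part in these values was not tested.

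**Figure D2:**
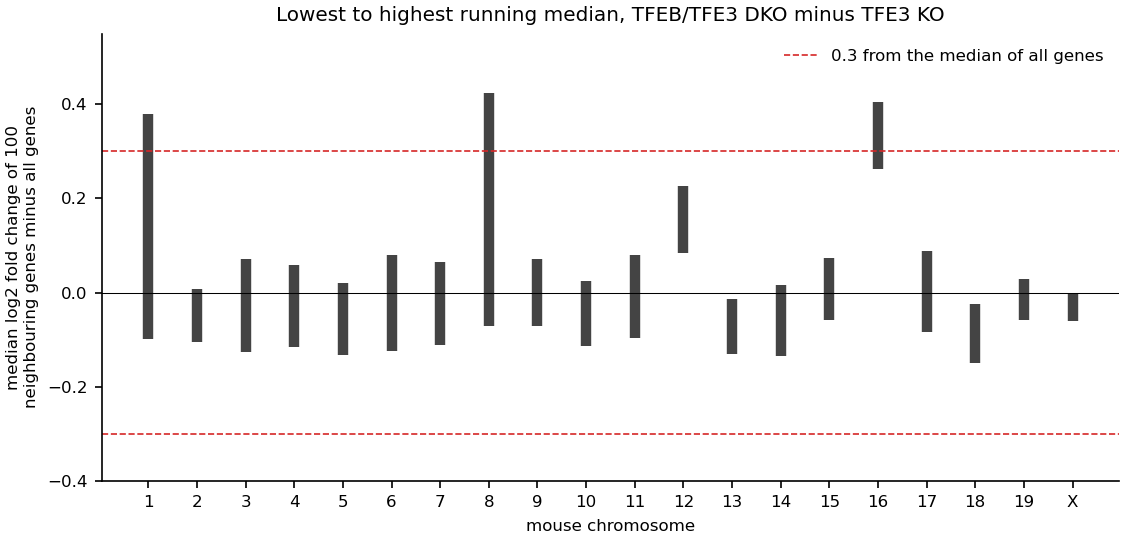
Range from the lowest to the highest running median of 100 neighbouring genes, as the log2 fold change of the TFEB/TFE3 DKO against the TFE3 KO minus the median of all genes (y axis), for each chromosome (x axis), with dashed lines at 0.3 in either direction. Chromosomes 1, 8 and 16 cross the upper line, at 0.38, 0.424 and 0.405, and no chromosome reaches the lower one.

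The largest rise was that of Clu, which encodes the secreted chaperone clusterin. It rose from 10.6, 8.44 and 7.47 CPM to 175, 138 and 192 CPM, with no overlap (4.11 ± 0.15, adjusted p = 3.3e-15). The parental libraries, at 26.6, 31.2 and 21.7 CPM, lay between the lines. S100a6 and S100a4, which encode small calcium-binding proteins, followed the same order. S100a6 rose from 19.4, 21.2 and 19.8 CPM to 140, 140 and 147 CPM (2.76 ± 0.09). S100a4 rose from 35.9, 32.3 and 32.3 CPM to 202, 172 and 231 CPM (2.55 ± 0.09), and 35.5% of the 50-base stretches at its 3′ end also occur in another gene's transcripts, so its reads may be shared. Prss35, a serine protease-like gene, was listed at 0 reads in all 3 TFE3 KO libraries and in all 3 parental ones, and had 9.74, 9.81 and 7.48 CPM in the DKO. Against 3 reads over the TFE3 KO libraries together, its mean of 9.01 CPM was at least 194-fold higher. The TFEB KO, where TFE3 is present, also had Prss35, at 7.67, 7.45 and 9.02 CPM.

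Several other leading genes were low in the TFE3 KO line itself. Usp11, a deubiquitinase gene, had at most 3 reads in any TFE3 KO library and is given without a fold change. Its level was 0.0866 to 0.15 CPM there, 17.6, 11.5 and 18.3 CPM in the DKO and 7.64 to 10 CPM in the parental cells. Mbp, the gene of myelin basic protein, rose from 5.98, 7.83 and 5.37 CPM to 70.3, 138 and 70.6 CPM (3.61 ± 0.17), and the parental cells at 66.9 to 72.8 CPM were close to the lower DKO libraries. Fkbp10, which encodes a prolyl isomerase of the endoplasmic reticulum that acts on collagen, rose from 1.1, 1.34 and 0.513 CPM to 23.4, 21.1 and 25 CPM (3.63 ± 0.17). Crabp2, which encodes a carrier of retinoic acid, rose from 0.249, 0.13 and 0.793 CPM to 10.7, 9.91 and 10.3 CPM (3.05 ± 0.19), with 3.68 to 5.17 CPM in the parental cells.

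Genes of membrane proteins made up the rest, and they too were lower in every TFE3 KO library than in any parental one. Parental levels were 7.73 to 8.59 CPM for Pecam1 and 9.98 to 14 CPM for F11r. For Tspan18 they were 10.2 to 14.7 CPM and for Oca2 3.05 to 4.53 CPM. Pecam1, an adhesion molecule best known from endothelium and leukocytes, rose from 2.79, 1.82 and 1.91 CPM to 31.6, 25.5 and 25.5 CPM (3.17 ± 0.20, adjusted p = 8.5e-11), while Cdh5, Kdr, Tek, Tie1, Emcn and Cldn5 of the endothelial markers were not in the table. F11r, the junctional adhesion molecule A gene, rose from 2.89, 3.55 and 3.45 CPM to 32.4, 26.7 and 37.4 CPM (2.94 ± 0.19). The tetraspanin gene Tspan18 rose from 3.44, 3.81 and 3.55 CPM to 22.5, 40.4 and 27.8 CPM (2.72 ± 0.25). Oca2, which encodes a melanosome ion transport protein needed for pigment, rose from 1.05, 0.606 and 1.21 CPM to 12.1, 17.4 and 13.5 CPM (2.97 ± 0.19). All 12 of these leading rises were still called with the component as a covariate.

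**Figure D3:**
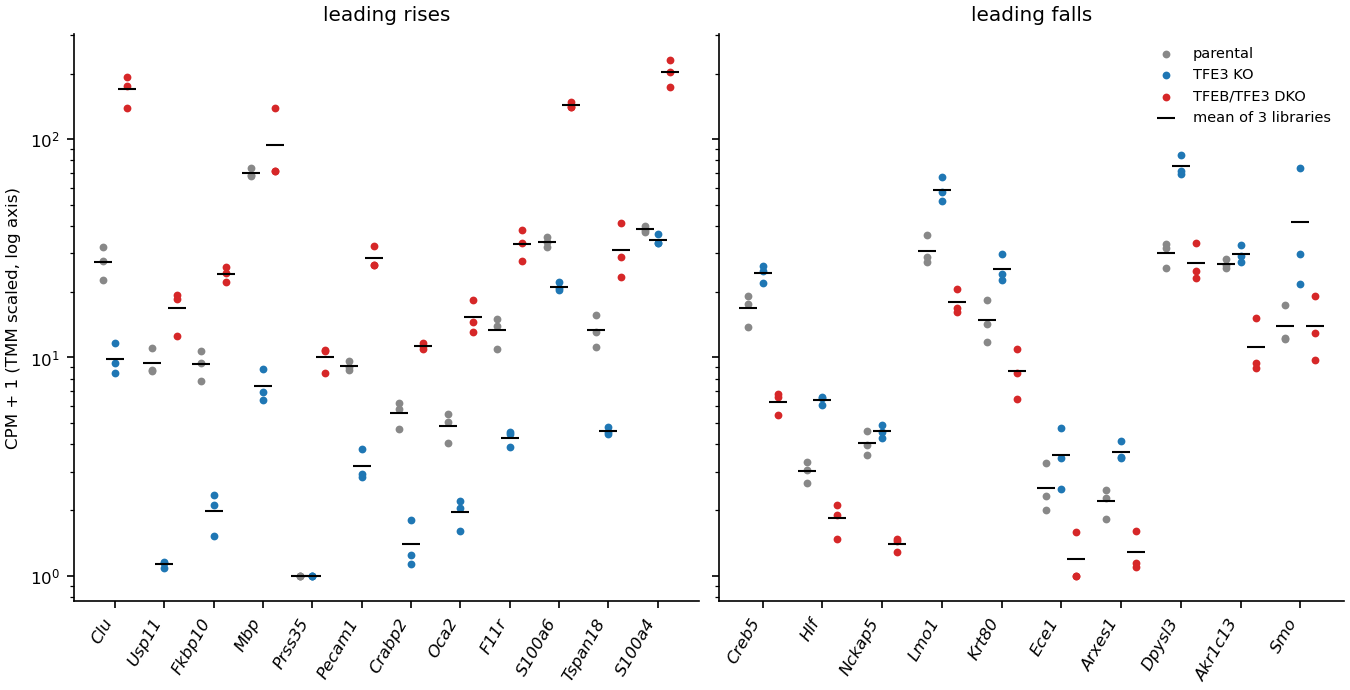
CPM + 1 on a log axis for 12 leading rises (left) and 10 leading falls (right) in the parental cells, the TFE3 KO and the TFEB/TFE3 DKO, with 1 point per library and a bar at the mean of 3. For Prss35 the parental and TFE3 KO libraries lie at 0 CPM and the DKO libraries at 7.48 to 9.81 CPM, and for Creb5 the TFE3 KO libraries lie at 21 to 25.2 CPM and the DKO libraries at 4.47 to 5.81 CPM.

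Regulators of transcription were among the leading falls. Creb5, of the CREB family, fell from 21, 24 and 25.2 CPM to 4.47, 5.56 and 5.81 CPM (-1.96 ± 0.15). Hlf, a PAR-type leucine zipper factor, fell from 5.04, 5.5 and 5.6 CPM to 0.479, 1.11 and 0.905 CPM (-1.81 ± 0.19). Lmo1, a LIM-only cofactor gene, fell from 56.4, 65.9 and 50.9 CPM to 15.2, 19.7 and 15.9 CPM (-1.71 ± 0.14), with 26.4 to 35.5 CPM in the parental cells.

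Structural and signalling genes made up the others. Dpysl3, a regulator of the cytoskeleton in growing neurites, fell from 68.7, 70.9 and 83.8 CPM to 23.8, 32.5 and 22.1 CPM (-1.49 ± 0.13), a level that overlapped the parental 24.8 to 32.2 CPM. The keratin gene Krt80 fell from 21.7, 28.9 and 23.1 CPM to 5.47, 9.96 and 7.48 CPM (-1.59 ± 0.19). Nckap5 fell from 3.29, 3.55 and 3.92 CPM to 0.439, 0.29 and 0.476 CPM (-1.71 ± 0.19), and Akr1c13, of the aldo-keto reductase family, from 26.5, 31.7 and 28.2 CPM to 8.46, 14.2 and 7.96 CPM (-1.45 ± 0.20). Ece1, the endothelin-converting enzyme, and Arxes1 fell by 1.57 and 1.55 on the log2 scale. Smo, the signal transducer of the Hedgehog pathway, fell from 20.7, 72.9 and 28.8 CPM to 11.9, 18.2 and 8.72 CPM (-1.44 ± 0.37, adjusted p = 0.0062). TFE3 KO replicate 2 set much of that value, which was -0.93 without it (adjusted p = 0.065) and -0.62 with the component.

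Lists of genes with a known role were then counted against the shares of all genes, 14.5% upregulated and 14% downregulated. The median log2 fold change of all genes was 0, and each list is described by its count and median without a test of its own.

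**Figure D4:**
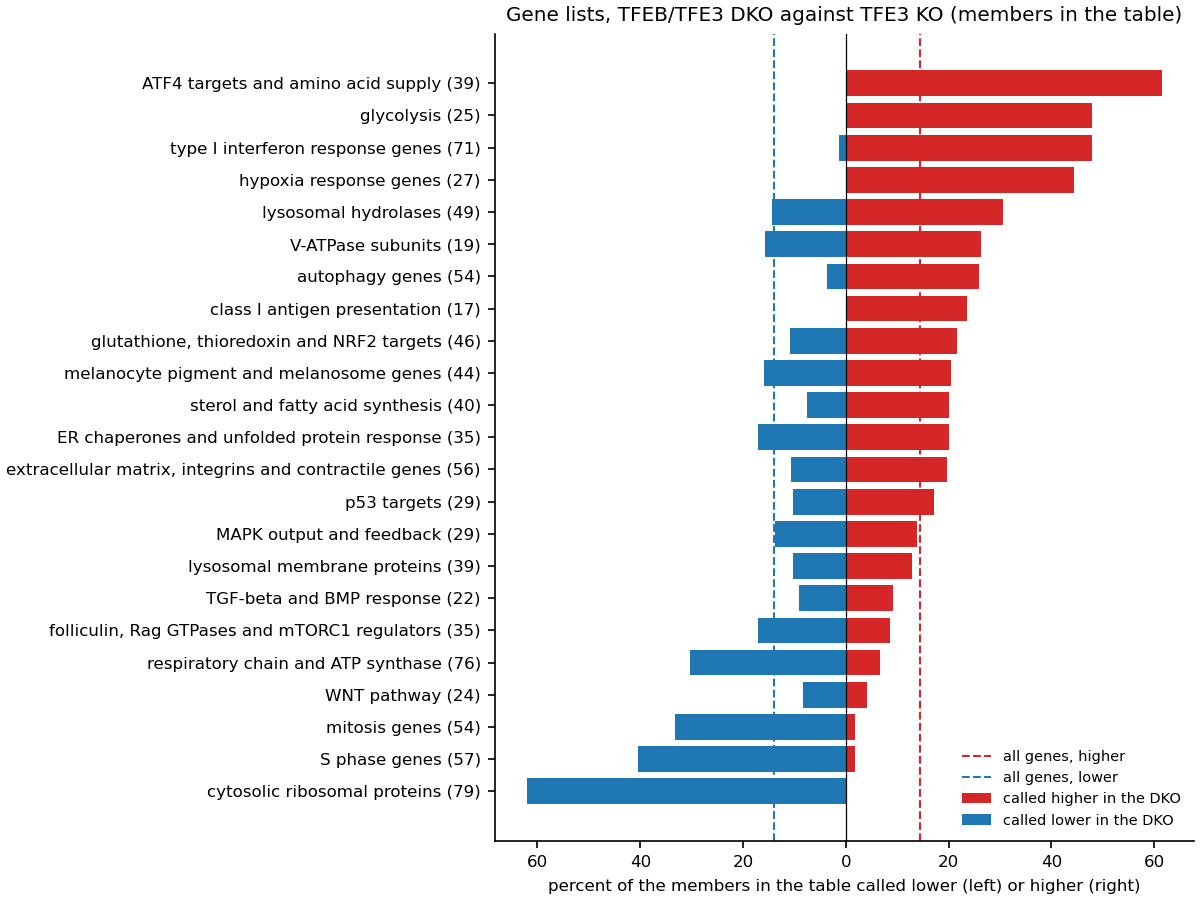
Share of the members in the table called lower (bars to the left) or higher (bars to the right) in the TFEB/TFE3 DKO at an adjusted p under 0.05 for 23 gene lists, with dashed lines at the shares of all genes (14% lower and 14.5% higher). Bars reach furthest to the right for ATF4 targets (24 of 39 members) and furthest to the left for cytosolic ribosomal proteins (49 of 79).

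Type I interferons act through STAT2 and IRF9, among other factors, to raise a large set of antiviral genes, many of which carry an interferon-stimulated response element (ISRE) near their start. Of 71 such genes in the table, 34 were upregulated in the DKO and 1, Oas1g, was downregulated, with a median of 0.345. Oas1g had overlapping libraries (-0.78 ± 0.29, adjusted p = 0.046) and was not called with the component (-0.24). The libraries did not overlap for 40 genes that were higher and for 0 that were lower, against 17.9% and 15.5% of all genes. Slfn2, a Schlafen gene, rose from 3.54, 2.38 and 5.41 CPM to 23.7, 20.4 and 26.1 CPM (2.39 ± 0.21, adjusted p = 2.9e-08). Phf11d rose from 2.99, 2.16 and 3.03 CPM to 22, 18.2 and 18.8 CPM (2.47 ± 0.20). Oasl1, of the oligoadenylate synthetase family, rose from 6.08, 9.56 and 9.89 CPM to 25.9, 23.2 and 25.8 CPM (1.47 ± 0.16), and Ifi44 from 20.2, 23 and 24.5 CPM to 48.7, 59.7 and 57.1 CPM (1.25 ± 0.11). The DKO did not exceed the parental range for these 4 genes except Phf11d, whose highest DKO library (22 CPM) was above the highest parental one (18.9 CPM). Parental Slfn2 was 45.6 to 53.8 CPM and parental Ifi44 138 to 153 CPM.

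The mean of log2(CPM + 1) over the 71 genes was 5.054, 5.025 and 5.015 in the TFE3 KO libraries and 5.405, 5.444 and 5.462 in the DKO. It was 5.928, 5.937 and 5.951 in the parental cells and 5.062, 5.083 and 5.07 in the TFEB KO. The order of these lines was parental, DKO, TFEB KO and TFE3 KO, with the single KOs close together and no overlap between neighbours. Loss of TFEB with TFE3 present gave the opposite direction: in the TFEB KO against the parental cells, 53 of the 71 genes were lower and 1 was higher, against 2.59% and 2.25% of all genes, with a median of -0.828. The difference between the TFEB effects, which uses libraries of 4 lines, was tested gene by gene. It was higher without TFE3 for 58 of the 71 genes and lower for 1, against 7.26% and 5.10% of all genes. With the component as a covariate, 34 interferon genes were upregulated and 0 downregulated in the DKO, and leaving out single libraries gave 30 to 36. In the fit of the 6 libraries alone it was 18.

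**Figure D5:**
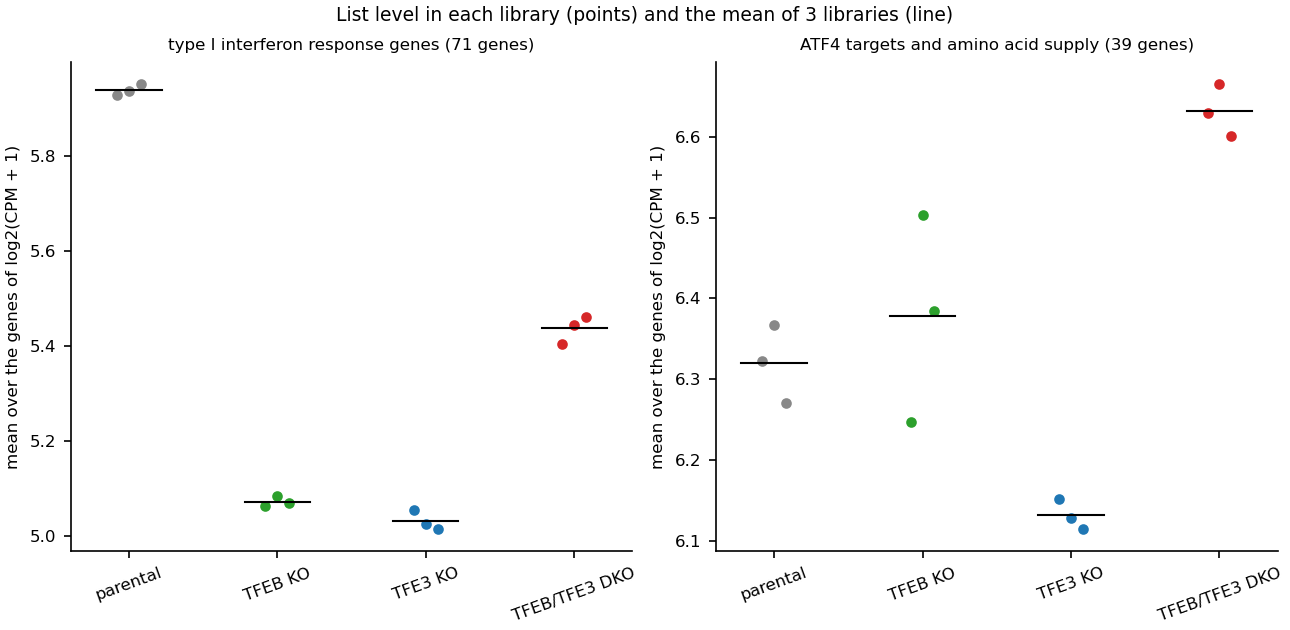
Mean of log2(CPM + 1) over the type I interferon response genes (left, 71 genes) and over ATF4 targets and amino acid supply genes (right, 39 genes), with 1 point per library and a line at the mean of 3, in the parental cells, TFEB KO, TFE3 KO and TFEB/TFE3 DKO. The y axes do not start at 0. Of these 4 lines, interferon genes were highest in the parental cells (5.928 to 5.951) and intermediate in the DKO (5.405 to 5.462), and ATF4 targets were highest in the DKO (6.601 to 6.665).

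RefSeq promoter sequences (250 bases before to 50 after the start; table build GRCm38.p6) matched 9647 of the 12010 genes. An ISRE core, read as GAAA, any 2 bases and GAAA again on either strand, was present for 29 of 54 interferon genes with a promoter (53.7%) and 12 of the 24 that were upregulated (50%), against 3.55% of all genes. Among all upregulated genes it was 4.18% and among all downregulated genes 3.31%. Examples are shown with the core in capitals. They were chosen after their values were seen and lie before the start at chr8:62381058-62381087 (Ddx60), chr11:58090338-58090367 (Igtp), chr10:128106135-128106164 (Stat2) and chr19:34560797-34560826 (Ifit3) of GRCm39. They had log2 fold changes of 0.87 (Ddx60, an RNA helicase), 0.80 (Igtp, an immunity-related GTPase), 0.50 (Stat2, the interferon signal transducer) and 0.38 (Ifit3, an antiviral protein), and 25.1% of the 3′ end of Ifit3 is shared with other genes.
Ddx60: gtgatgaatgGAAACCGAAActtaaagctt
Igtp: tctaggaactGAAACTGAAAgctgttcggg
Stat2: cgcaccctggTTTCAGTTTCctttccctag
Ifit3: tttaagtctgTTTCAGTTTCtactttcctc

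Class I antigen presentation genes overlap this response. Of 17 in the table, 4 were upregulated and 0 downregulated, with a median of 0.212. Nlrc5, the transactivator of class I genes, rose from 5.09, 5.41 and 4.99 CPM to 9.62, 11.1 and 11 CPM (0.90 ± 0.13). Psmb10, an immunoproteasome subunit gene, rose by 0.47, and the peptide loading genes Tapbp and Calr by 0.63 and 0.38. Tapbp libraries overlapped, and neither Tapbp (0.22) nor Calr (0.16) was called with the component as a covariate. Nlrc5, Psmb10 and Calr lie in a stretch of chromosome 8 that was raised as a whole, described above.

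ATF4 is the transcription factor of the integrated stress response and raises genes for amino acid import, serine and asparagine synthesis and tRNA charging. Of 39 of its targets and amino acid supply genes in the table, 24 were upregulated and 0 downregulated, with a median of 0.43. Nupr1, a stress-induced chromatin protein gene, rose from 25.6, 23.1 and 18.9 CPM to 83.4, 84.6 and 82.5 CPM (1.85 ± 0.13, adjusted p = 5.1e-10). Trib3, the pseudokinase that binds AKT and ATF4, rose from 36.9, 28.3 and 28.4 CPM to 116, 101 and 117 CPM (1.81 ± 0.12). Slc7a11, the cystine importer, rose from 5.39, 7.53 and 8.26 CPM to 24.1, 25.5 and 22 CPM (1.64 ± 0.21). Ddit4, an inhibitor of mTORC1, rose from 33.4, 30.6 and 41.3 CPM to 105, 98.4 and 88.5 CPM (1.45 ± 0.16), and Ddit3, the stress factor CHOP, from 136, 102 and 102 CPM to 269, 239 and 263 CPM (1.19 ± 0.11).

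None of these 5 genes had overlapping libraries, and 24 of the 39 had DKO libraries above every TFE3 KO library, against 17.9% of all genes. Atf4 itself rose by 0.64 (adjusted p = 0.00039), the aminoacyl-tRNA synthetase genes Sars, Aars and Nars by 0.75, 0.66 and 0.46 (0.27 with the component for Nars), and Mthfd2 of the mitochondrial folate cycle by 0.57. The promoter of Aars lies within the bounds of the raised stretch of chromosome 8 described above. The mean of log2(CPM + 1) over the list was 6.152, 6.128 and 6.115 in the TFE3 KO, 6.63, 6.665 and 6.601 in the DKO, 6.323, 6.367 and 6.271 in the parental cells and 6.247, 6.503 and 6.385 in the TFEB KO. The DKO libraries were above all those of the other lines named. The TFEB effect was higher without than with TFE3 for 13 of the 39 and lower for 0, against 7.26% and 5.10% of all genes. With the component as a covariate 25 were upregulated, and 18 to 24 when single libraries were left out, the lowest without TFE3 KO replicate 2. In the fit of the 6 libraries alone it was 16.

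A core of the ATF4 element, TGATGNAA on either strand, was in the promoters of 11 of 33 list members with one (33.3%) and of 8 of the 22 upregulated members with one (36.4%), against 2.58% of all genes, 3.69% of all upregulated and 1.88% of all downregulated genes. Examples are Nupr1, which held it at chr7:126224734-126224763, Slc7a11, at chr3:50398110-50398139 and again 19 bases further on, and Chac1, at chr2:119181519-119181548 of GRCm39. Chac1, a glutathione-degrading enzyme gene, rose from 33.4 ± 3.07 to 84.5 ± 1.39 CPM (SD, n = 3). The core is in capitals.
Nupr1: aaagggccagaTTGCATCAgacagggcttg
Slc7a11: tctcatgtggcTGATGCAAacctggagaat
Chac1: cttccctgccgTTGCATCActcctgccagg

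Hypoxia response and glycolysis genes also moved upward. Of 27 hypoxia response genes 12 were upregulated and 0 downregulated (median 0.29), and of 25 glycolysis genes 12 and 0 (median 0.28). Slc16a3, the lactate exporter MCT4, rose from 51.5, 48.5 and 51.7 CPM to 225, 170 and 192 CPM (1.92 ± 0.14, adjusted p = 1.5e-09). Bnip3, a mitophagy receptor that hypoxia raises, rose from 42.7, 51.5 and 45.5 CPM to 212, 147 and 144 CPM (1.81 ± 0.24), and 16.3% of its 3′ end is shared with other genes. Hk1, the hexokinase gene, rose by 0.88 and Ero1a, an oxidase of protein folding, by 0.75, both without overlap. Pgam1 and Eno2 rose by 0.64 and 0.59 with overlapping libraries, and with the component Pgam1 was not called (0.25) and Eno2 was at 0.31. Adm, the adrenomedullin gene, had at most 3 reads in any TFE3 KO library and 0.905 to 1.6 CPM in the DKO. Among glycolysis genes, 2 were at least 2-fold lower by the threshold of the study without an adjusted p under 0.05, against 1 that was 2-fold higher. With the component as a covariate, glycolysis had 9 genes upregulated and 1 downregulated, and in the fit of the 6 libraries alone 3 were upregulated. Without DKO replicate 1 or without TFE3 KO replicate 3 the glycolysis count was 7. The hypoxia count was 7 in the fit of the 6 libraries alone. In the TFEB KO against the parental cells, 6 of the 25 glycolysis genes were higher and 0 lower (median 0.324). For the 27 hypoxia genes it was 4 and 0 (median 0.189), against 2.25% and 2.59% of all genes. The TFEB effect was higher without than with TFE3 for 5 glycolysis genes and lower for 2. For hypoxia genes it was 2 and 0, against 7.26% and 5.10% of all genes.

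The classical targets of TFEB were counted next, to see whether the lysosome moved as a group. Of 49 lysosomal hydrolase genes 15 were upregulated and 7 downregulated (median 0.12), of 39 lysosomal membrane protein genes 5 and 4 (0.05), and of 19 V-ATPase subunit genes 5 and 3 (0.15). The shares of all genes were 14.5% and 14%. Ctsh, a cysteine protease, rose from 12.7, 9.82 and 10.5 CPM to 24.6, 27.7 and 25.2 CPM (1.17 ± 0.10, adjusted p = 1.5e-08). Smpd1, acid sphingomyelinase, rose from 42.8, 39.9 and 39 CPM to 78.6, 75.7 and 75.8 CPM (0.90 ± 0.08). Grn, the progranulin gene, rose from 645, 429 and 378 CPM to 975, 656 and 1132 CPM (0.93 ± 0.20), and by 0.47 with the component.

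Among membrane proteins, the transporter genes Abcb9 and Ctns and the proton channel gene Tmem175 rose by 0.97, 0.70 and 0.59, and Ifi30, a thiol reductase of antigen processing, fell from 31, 28.9 and 24.5 CPM to 14.2, 18.3 and 19.5 CPM (-0.68 ± 0.14). Ctns rose by 0.43 with the component. Of the V-ATPase, Atp6v1d rose from 376, 300 and 334 CPM to 523, 430 and 497 CPM (0.52 ± 0.10) and by 0.32 with the component. Atp6v0a1 and Atp6v1f rose by 0.49 and 0.41 and Atp6v1g1 fell by 0.57, but all 3 had overlapping libraries and none was called with the component (0.12, 0.15 and -0.13). With the component, 9 hydrolase genes were upregulated and 6 downregulated, and the V-ATPase had 3 and 0 with a median of -0.0546, the opposite sign. Single libraries also set these counts. Hydrolases had 7 upregulated without DKO replicate 3, 8 without DKO replicate 1 or TFE3 KO replicate 3 and 9 without TFE3 KO replicate 2, and 2 downregulated without TFE3 KO replicate 2 and 3 without DKO replicate 1 or 3. Membrane protein genes had 3 upregulated without DKO replicate 1 or 3 or TFE3 KO replicate 2, and the V-ATPase 2 upregulated and 0 downregulated without DKO replicate 1 or TFE3 KO replicate 2, and 3 upregulated without DKO replicate 3 or TFE3 KO replicate 3. In the fit of the 6 libraries alone, 6 hydrolase genes were upregulated and 2 downregulated.

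Autophagy genes had 14 of 54 upregulated and 2 downregulated (median 0.15). The cargo and mitophagy receptor genes Calcoco1 and Bnip3l rose by 0.88 and 0.78, and Plekhm1, an adaptor of lysosome fusion, rose from 55.8, 46.4 and 43.1 CPM to 95.4, 75.5 and 87.6 CPM (0.82 ± 0.13). Left-out libraries gave 7 to 16 upregulated autophagy genes, the lowest without DKO replicate 3. Of 35 folliculin, Rag GTPase and mTORC1 regulator genes, 3 were upregulated and 6 downregulated, with 1 downregulated without DKO replicate 1 or 3 or TFE3 KO replicate 2. Sesn2, a leucine sensor, rose by 0.81 and was not called with the component (0.62). Flcn, which encodes folliculin, the regulator of RagC and RagD, went from 28.5, 40.1 and 37.8 CPM to 15.4, 31.9 and 17.1 CPM, and its fall (-0.76 ± 0.23, adjusted p = 0.019) was not called with the component (-0.24). The fall of Sec13 (-1.22) shrank to -0.32 with it.

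Promoters were searched for the E-box forms that this family binds. The palindrome TCACGTGA, the core of the CLEAR element that TFEB and TFE3 bind, was in the promoters of 2.30% of all genes, 2.30% of the upregulated and 1.81% of the downregulated genes. TCATGTGA was in 0.995%, 0.905% and 0.753%, CACGTG, which is contained in the palindrome, in 12%, 11.3% and 13.0%, and CATGTG in 10.0%, 10.4% and 9.86%, each counted on either strand. Among the genes changed by at least 2-fold, 0 of 151 higher and 0 of 108 lower promoters held TCACGTGA. The elements of 4 genes described here are given with the match in capitals, from chr8:71219486-71219515 (Ifi30), chr8:85573767-85573796 (Calr), chr11:102321111-102321140 (Grn) and chr2:124910017-124910046 (Slc24a5) of GRCm39. Ifi30 and Slc24a5 were downregulated, and Calr and Grn upregulated.
Ifi30: atccaaaaactTCACGTGAccagacatgct
Calr: ctgaggttcagTCACGTGAccgtgcctgag
Grn: tgattctctaaTCACATGAtccctagaaat
Slc24a5: ggaggaaggagactgcTCACATGAttcagc

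Pigment and melanosome genes, the field of MITF, were called in both directions, with 9 of 44 upregulated and 7 downregulated (median 0.08). The shares of all genes were 14.5% and 14%. Beside Oca2, Met, the receptor of hepatocyte growth factor, rose from 283, 287 and 285 CPM to 509, 411 and 471 CPM (0.69 ± 0.14, adjusted p = 0.00089). Slc24a5, a melanosome cation exchanger, fell from 828, 898 and 869 CPM to 600, 606 and 546 CPM (-0.57 ± 0.07). Rab32, a GTPase of melanosome traffic, fell by 0.58 with overlapping libraries and was not called with the component (-0.23).

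Genes of protein synthesis and of division made up the largest groups of falls. Of 79 cytosolic ribosomal protein genes, 49 were downregulated and 0 upregulated (median -0.405). Together they held 9.92%, 10.7% and 9.27% of the summed signal of the TFE3 KO libraries and 7.81%, 8.28% and 7.93% of that of the DKO, against 9.38% to 10.2% in the parental cells. Rps27a fell from 558, 1088 and 765 CPM to 242, 507 and 248 CPM (-1.31 ± 0.33, adjusted p = 0.0060). Rpl15 (24.1, 124 and 52.4 CPM to 16.3, 28.1 and 7.43 CPM), Rps23 (304, 829 and 557 CPM to 109, 359 and 111 CPM) and Rpl7a (487, 1146 and 842 CPM to 200, 631 and 204 CPM) fell by 1.77, 1.66 and 1.39 with overlapping libraries, and 84.9% of the 3′ end of Rpl7a is shared with other genes. Rpl15, Rps23 and Rpl7a had large weights in the component itself, so a shift with it was built in. With it as a covariate the values of Rps27a, Rpl15, Rps23 and Rpl7a were -0.51, -0.44, -0.40 and -0.29. Rpl15 and Rpl7a were then no longer called. The list as a whole then had 58 members downregulated with a median of -0.33, and 33 to 58 with single libraries left out, the lowest without TFE3 KO replicate 2. In the fit of the 6 libraries alone 10 members were called. Rps27a (limma adjusted p = 0.0552), Rpl15 (0.11), Rps23 (0.0843) and Rpl7a (0.106) were not among them.

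Genes of the respiratory chain and ATP synthase had 23 of 76 downregulated and 5 upregulated (median -0.16), and here the calls rested on few libraries. The count of falls was 9 with the component and 2 without TFE3 KO replicate 2. Cox7c went from 141, 523 and 393 CPM to 65.4, 247 and 53.8 CPM (-1.67 ± 0.63, adjusted p = 0.0498), and -0.11 with the component. Ndufa1 (-1.05), Ndufa4 (-0.98) and Uqcrfs1 (-0.95) had overlapping libraries too and were not called with it (-0.08, -0.26 and -0.08).

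S phase genes had 23 of 57 downregulated and 1 upregulated (median -0.21), and mitosis genes 18 of 54 and 1 (median -0.18). Against the parental cells, 12 S phase genes were upregulated and 0 downregulated in the TFE3 KO (median 0.203). In the DKO it was 2 and 2 (median -0.06). For mitosis genes these counts were 1 and 0 in the TFE3 KO (median 0.109) and 0 and 3 in the DKO (median -0.102). Pcna, the sliding clamp of DNA polymerase, fell from 80.7, 144 and 110 CPM to 46.7, 73.9 and 48.3 CPM (-0.97 ± 0.22, adjusted p = 0.0024), and Mcm6, of the replicative helicase, from 291, 422 and 365 CPM to 161, 278 and 174 CPM (-0.84 ± 0.20). Mad2l1, of the spindle checkpoint, fell from 52.9, 72.6 and 65.9 CPM to 32.3, 44.7 and 28.9 CPM (-0.85 ± 0.18), and Ccna2, cyclin A2, from 92.2, 129 and 110 CPM to 60.8, 73.8 and 58.6 CPM (-0.76 ± 0.17). With the component these were -0.47, -0.38, -0.43 and -0.39 and were still called. Cdk1 fell by 0.72, and by 0.29 with the component. In the fit of the 6 libraries alone Pcna (limma adjusted p = 0.0536), Mcm6 (0.0609) and Cdk1 (0.0711) were not called, while Mad2l1 and Ccna2 kept their call. Dscc1 (-1.35), Fen1 (-0.88) and Aurkb (-1.12) had overlapping libraries and shrank to -0.48, -0.09 and -0.37, with Dscc1 alone still called. The lists had 24 and 14 downregulated members with the component, 14 to 22 and 6 to 22 with single libraries left out, and 5 and 3 in the fit of the 6 libraries alone.

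The remaining lists were called in both directions, where 14.5% of all genes were upregulated and 14% downregulated. Sterol and fatty acid synthesis had 8 of 40 upregulated and 3 downregulated (median 0.03), led by Mvd of the mevalonate pathway, which rose from 70.5, 48.9 and 42.1 CPM to 146, 99.9 and 159 CPM (1.32 ± 0.19). Me1, Nsdhl and Hmgcs1 rose by 0.75, 0.60 and 0.54. Sterol genes had 6 downregulated with the component and without DKO replicate 2, and 5 upregulated without DKO replicate 3 or TFE3 KO replicate 2 or 3. ER chaperone and unfolded protein response genes had 7 of 35 upregulated and 6 downregulated (median -0.03). There Herpud1, of ER-associated degradation, rose from 84.9, 105 and 83.3 CPM to 171, 169 and 165 CPM (0.89 ± 0.08). Pdia4, a disulfide isomerase, rose by 0.83 (0.29 with the component), and Sec61b, of the translocon, fell by 1.13 with overlapping libraries (-0.18 and not called with it). Glutathione, thioredoxin and NRF2 targets had 10 of 46 upregulated and 5 downregulated (median 0.03), with 1 downregulated with the component and without TFE3 KO replicate 2. Gsta1 and Txn1 fell by 1.43 and 0.85 with overlapping libraries and were not called with the component (-0.48 and -0.13), and 82.5% of the 3′ end of Gsta1 is shared with other genes.

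Extracellular matrix, integrin and contractile genes had 11 of 56 upregulated and 6 downregulated (median 0.05). With the component 6 were upregulated and 5 downregulated, with a median of -0.00851, and without DKO replicate 1 the counts were 4 and 1. Without DKO replicate 3 or TFE3 KO replicate 2, 5 were upregulated, and without TFE3 KO replicate 3, 6. Spp1, the secreted matrix protein osteopontin, rose from 0.299, 0.303 and 0.327 CPM to 8.34, 6.57 and 3.62 CPM (2.40 ± 0.19). Axl, a receptor tyrosine kinase, rose from 17.8, 15.5 and 12.9 CPM to 36.6, 30.7 and 35.7 CPM (1.12 ± 0.12), and the integrin gene Itgb3 by 0.94 (0.60 with the component). Cd44, a hyaluronan receptor, fell by 0.69 (0.29 on the log2 scale with the component). Targets of p53 had 5 of 29 upregulated and 3 downregulated (median -0.19), with Tnfrsf10b, a TRAIL receptor, falling by 1.29, Ei24 falling by 0.61 and the repair gene Xpc rising by 0.62 (-0.38 and 0.32 with the component for Ei24 and Xpc).

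TGF-beta and BMP response genes had 2 of 22 called in each direction (median -0.09): Tgfb2 and the receptor gene Bmpr2 rose by 0.79 and 0.35, and Id1 and Pmepa1 fell by 0.60 and 0.40, with Id1 not called with the component (-0.51). The WNT pathway had 1 of 24 upregulated and 2 downregulated (median -0.06), and 3 were upregulated with the component. The kinase gene Gsk3b rose by 0.81, the ubiquitin ligase gene Znrf3 fell by 0.71 (-0.31 and not called with the component) and Ctnnb1, the gene of beta-catenin, fell by 0.23. MAPK output and feedback genes had 4 of 29 called in each direction (median -0.16). In the main fit the TGF-beta, WNT and MAPK lists did not exceed the shares of all genes, 14.5% upregulated and 14% downregulated. The receptor gene Epha4, Ier3 and the AP-1 gene Fosl2 rose by 1.13, 0.66 and 0.62, and the feedback inhibitor Spry1 fell by 0.77 with overlapping libraries (-0.51 and not called with the component).

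Whether the effect of TFEB loss differs with TFE3 was tested by the difference between DKO minus TFE3 KO and TFEB KO minus parental. Each genotype is a single line, so differences between clones cannot be told apart from a part of TFE3. Of 12010 genes, 872 (7.26%) had a higher and 613 (5.10%) a lower effect without TFE3. Prss35 was listed at 0 in both baselines, the TFE3 KO and the parental cells, so its effects cannot be compared. Clu and S100a6 rose in both, by 1.51 and 1.32 with TFE3 present and by 2.59 and 1.44 more without it (adjusted p = 1.4e-08 and 3.1e-08). Crabp2 had 4.79, 3.68 and 5.17 CPM in the parental cells and 3.04, 3.34 and 2.22 CPM in the TFEB KO, and its difference was 3.58 ± 0.26. Creb5 fell in both, by 1.21 with TFE3 present.

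Whether the effect of TFEB loss differs with MITF was tested against the TKO minus the MITF/TFE3 DKO, with the same limit of a single line per genotype. The Tfe3 transcript also differed between these lines. It was at 8.01, 9.75 and 8.14 CPM in the MITF/TFE3 DKO and 21.7, 19.9 and 17.6 CPM in the TKO. The paper adds that its MITF KO cells may hold a little truncated MITF protein. In this test 2546 genes (21.2%) had a higher and 2716 (22.6%) a lower effect in the cells with MITF. The direction of some leading genes was opposite. Clu fell without MITF, from 77.5, 102 and 83.8 CPM in the MITF/TFE3 DKO to 26.8, 27.2 and 23 CPM in the TKO (difference 5.83 ± 0.21, adjusted p = 4.5e-16). Trib3 fell there from 123, 115 and 104 CPM to 13.8, 13.8 and 11.1 CPM (difference 4.86 ± 0.17). Interferon genes had a higher effect with MITF for 64 of 71 and a lower one for 1, with a median difference of 2.97, and ATF4 targets for 26 and 0 of 39. In the TKO against the MITF/TFE3 DKO, 65 of the 71 interferon genes were lower and 2 higher (median -2.72). For the 39 ATF4 targets it was 29 lower and 2 higher (median -0.712). Of all genes, 2908 were lower and 3195 higher there. S100a6 rose on both sides, by 3.0 without MITF, and its difference of -0.23 ± 0.12 did not pass the threshold (adjusted p = 0.13).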

How the data were processed

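RNA was measured by 3′-end sequencing (QuantSeq forward) in 24 libraries of 8 B16F10-luc2 lines, 3 per line. Per the labels, reads were trimmed with Trim Galore 0.6.5 and cutadapt 2.10, checked with FastQC 0.11.9 and aligned with STAR 2.7.8a to mm39, and edgeR normalized the counts. The counting tool, annotation and gene filter are not given in the sources used here. The deposited values are a normalized signal, CPM divided by TMM factors, for 12010 genes, and the table held 0 columns of other samples. Whole reads were recovered for 99.99% of values (within 0.05 of a whole number), 18300902 to 26667877 per library. These totals limit counting error only.

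The main test, planned for normalized counts and kept for this signal, was limma 3.58.1 with a variance trend on log2(CPM + 1), 1 fit of the line over 24 libraries (16 residual degrees of freedom) and Benjamini-Hochberg adjustment over all genes. This scale understates the fold change of genes with few reads. No fold change between the DKO and the TFE3 KO is given where no library of a group held over 3 reads. For Prss35 a lower bound is given instead. The members and lists were chosen with earlier results of these data known. Named genes were Mitf, Tfeb and Tfe3, the 12 largest rises and 12 largest falls called with non-overlapping libraries and a mean of at least 1 CPM, up to 4 called genes per list (23 lists), and the 4 largest differences of effect in each direction. Some of these genes and sequences are not reported here. Replicates were no duplicates (chi-square per degree of freedom at least 4.61). This value was 25.98 to 50.88 between TFE3 KO libraries and 7.618 to 42.07 between DKO libraries. It was 4.609 to 8.139 in the TKO and reached 53.35 in the TFEB KO. Alternatives were edgeR 4.0.16, DESeq2 1.42.0, other pseudocounts, scalings, filters, sample sets and left-out libraries. Positions and 3′ ends came from GENCODE vM39 (11659 genes matched by symbol), promoters from RefSeq. The shared 3′ end is the percent of 50-base stretches in the last 300 bases found in other genes. Steps were tested on simulated reads, drawn independently for each library and without the component described above. That test does not cover the effect of the component on the calls. R 4.3.3, Python 3.11.15, numpy 2.4.6, pandas 2.3.3 and matplotlib 3.10.9 were used.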

Additional observations from a re-analysis of the deposited data

Results flagged for a closer look

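The effect of losing TFEB differed between cells without and with TFE3 for the genes that follow, by the test of that difference in the fit of all lines (limma, Benjamini-Hochberg adjusted p). Here and for MITF below, each genotype is a single line, so differences between clones are part of these values. It was higher without TFE3 for Slfn2 (difference 4.54 ± 0.30, adjusted p = 5.5e-10), Ccdc8 (4.39 ± 0.25, adjusted p = 3.7e-11), Crabp2 (3.58 ± 0.26, adjusted p = 3.5e-09) and Ifi44 (3.57 ± 0.15, adjusted p = 4.8e-13). Ccdc8 had at most 3 reads in any TFE3 KO library, so its value depends on the pseudocount. It was lower without TFE3 for Lmo1 (-2.03 ± 0.20, adjusted p = 2.2e-07), Gsta1 (-1.92 ± 0.60, adjusted p = 0.037) and Socs2 (-1.81 ± 0.25, adjusted p = 3.9e-05). Gsta1 was not called with edgeR (adjusted p = 0.0703), DESeq2 (0.0847), a pseudocount of 0.25 (0.0533) or the compared lines alone (0.135), nor without DKO replicate 1 (0.0901) or 3 (0.114) or TFE3 KO replicate 2 (0.12) or 3 (0.0632).

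The effect also differed between cells with and without MITF. It was higher with MITF for Ifi44 (7.87 ± 0.15, adjusted p = 9.0e-21), Lgals3 (7.57 ± 0.15, adjusted p = 9.0e-21), Iigp1 (7.40 ± 0.20, adjusted p = 1.7e-18) and F11r (6.77 ± 0.27, adjusted p = 3.8e-15). Without MITF these genes fell, from 14.9 CPM or more in the MITF/TFE3 DKO to at most 0.619 CPM in the TKO. With TKO libraries this near 0, the sizes of these differences depend on the pseudocount. The effect was lower with MITF for Sorbs2 (-5.89 ± 0.22, adjusted p = 1.4e-15), Acta2 (-5.39 ± 0.24, adjusted p = 2.9e-14), Tslrn1 (-5.09 ± 0.17, adjusted p = 1.0e-16) and Gm773 (-5.00 ± 0.23, adjusted p = 5.1e-14). These last genes were at or below 0.677 CPM in every library of the TFE3 KO and the TFEB/TFE3 DKO. Acta2, Tslrn1 and Gm773 had 0 reads in the TFE3 KO and at most 3 in any DKO library, so their values depend on the pseudocount. With edgeR on whole reads these 3 were not called (adjusted p = 0.876, 0.936 and 1), and Gm773 was not called with DESeq2 (adjusted p = 0.0591).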

How the results depend on the processing

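The 204 and 141 genes changed by at least 2-fold became 392 and 241 with a pseudocount of 0.25, 79 and 48 with a pseudocount of 5, 509 and 283 with edgeR and 533 and 280 with DESeq2 on whole reads. With genes of a mean of at least 5 CPM alone, 126 were higher, and with the component 40 were lower. In fits of the lines compared alone, 704 genes were upregulated and 344 downregulated, and the effect without TFE3 was higher for 480 and lower for 229. With the component it was higher for 1049 and lower for 1141, which turns the balance, as leaving out DKO replicate 2 (241 and 354) or TFE3 KO replicate 1 (230 and 325) does at 2-fold. Leaving out single libraries gave 1131 to 1917 upregulated and 839 to 2121 downregulated genes, both lowest without TFE3 KO replicate 2, 200 to 241 and 55 to 354 at 2-fold, and 587 to 999 and 316 to 936 for the difference of effects. The median of V-ATPase genes changed sign with the component (0.149 to -0.0546). The causes were not tested. Of 119 named genes, 42 changed their call in fits of the compared lines alone, 33, 20, 27 and 28 without TFE3 KO replicates 2 and 3 and DKO replicates 1 and 3, 24 with the component and at most 8 under each other setting. The 42 included Smo, Grn, Tmem175, Psmb10, Eno2, Pdia4, Sec13, Dscc1, Ei24, Cd44, Pmepa1, Bmpr2 and Ctnnb1. Deviations from the line means of same-numbered libraries correlated at r = 0.472, 0.647 and -0.302. With 3 libraries per line this cannot settle whether the replicate numbers pair the libraries. A block on the replicate number gave 1759 upregulated and 1712 downregulated genes, 204 and 145 at 2-fold, and no named call changed. The share of called genes inside raised stretches was 13.3%, 16.5% with a limit of 0.2, 12.8% with windows of 50 genes and 0 with a limit of 0.5. Each group had 3 libraries of a clone.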
